A study of Mus musculus with 45 samples.

Results

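Late drift of cultured hepatic stellate cells (HSCs) was described by comparing the RNA of cells kept on plastic for 12 days with that of cells kept for 8 days. The libraries were chosen by their titles, HSCs IVT 12days (A, B and C) and HSCs IVT 8days (A, B and C), which gave 6 of the 45 libraries of the series. The other culture libraries, 3 each of day 1, day 4 and a control kept in suspension for 2 hours (here day 0), gave the earlier changes of the same genes. The in vivo experiments of the series were used for reference only, 4 libraries of HSCs from mice on Western diet (WD) with fructose for 24 weeks against 4 from chow-fed mice, and 3 libraries from mice given CCl4 for 8 weeks against 4 from vehicle-treated mice. All cells came from C57BL6/J mice and were sorted live by FACS on their retinoid autofluorescence. The methods name the mice as male C57BL/6JBomTac. The WD-fed and chow-fed mice were age-matched, and the age of the mice used for culture is not given in the sources used here. Every culture was kept in DMEM with 10% serum, penicillin, streptomycin and amphotericin on polystyrene plates, and the medium was renewed during culture. The labels name the serum as FBS and the methods as calf serum. The methods speak of technical triplicates for the cultures and of biological replicates for the RNA, so the p-values below measure the spread between libraries, which may be wells of one preparation.

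HSCs are the pericytes of the liver sinusoid. In the quiescent state they store vitamin A in lipid droplets, and in injured liver, or when plated on stiff plastic in serum, they lose these droplets, proliferate and turn into contractile myofibroblasts that produce fibrillar collagen. Culture on plastic is therefore the common in vitro model of HSC activation, and the late days are usually taken as the myofibroblast end of that course.

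The culture table lists 23999 rows, 1 per gene. The counts did not follow the identifiers printed beside them. The row listed at Actb, a cytoskeletal actin that every cell expresses, held between 0 and 2 counts in the 6 libraries, and the rows listed at B2m, a subunit of MHC class I, and at Col1a1, a fibrillar collagen chain, held 0. Identifiers of olfactory and other receptor, defensin and keratin-associated families, which liver cells hardly express, averaged under 1 count over these 6 libraries in 35.5% of their 1593 rows, and the whole table did so in 34.3%. Rows were therefore treated as unnamed genes and are given by their line in the table, counted from 1. For the same reason the labelled cell type could not be checked against its markers, and neither gene functions nor sequences are given. The same line was taken as the same gene in all 3 experiments, and the rank correlation of mean levels over all rows between days 8 or 12 and any group of mice was between 0.857 and 0.914.

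Total counts were 6722857, 6659701 and 7568415 on day 8 and 7220670, 7022140 and 7544189 on day 12, so that both days were sequenced to a like depth. Over all 15 culture libraries totals ranged from 3556607 to 7568415. A total of 13655 rows had enough counts to be tested. Levels are given as CPM, counts relative to the library total, and those of tested culture rows were also scaled between libraries by TMM. Levels in mice, of groups of rows and of rows too low to be tested are relative to the library total only. A row was called at an adjusted p (FDR) of at most 0.05 in edgeR's quasi-likelihood test. Its mean log2CPM over the compared days also had to exceed 2. In bulk RNA, fewer cells of a type and less RNA per cell cannot be told apart.

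Between day 8 and day 12, 1456 rows rose (10.7% of those tested) and 1541 fell (11.3%). These 2997 rows were 21.9% of all rows tested and 26.1% of the 11499 above the expression threshold. Most changes were small. The median log2 fold change (log2FC) was 0.44 for the rows that rose and -0.45 for those that fell, and 2006 of the called rows (66.9%) changed by less than 1.5-fold. Changes of at least 2-fold were found for 178 rows that rose and 148 that fell (2.39% of the rows tested together), and changes of at least 4-fold for 21 and 11. The median log2FC over all rows above the threshold was -0.01, with quartiles of -0.18 and 0.16. The 3 values of day 8 and the 3 of day 12 did not overlap in 3525 rows that were higher (25.8% of those tested) and in 3664 that were lower (26.8%), and among the called rows this held for 1446 of the 1456 and 1534 of the 1541. The number of calls depended on which libraries set the error of the fit. When the day 0 libraries, of which B stood apart from A and C, were left out, 2803 rows rose and 2913 fell, and without library C of day 8 the number that fell was 1025.

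The measured size of change and its standard error both went down with the level of the row. The measured size includes this error, and the part due to each was not tested. Among the 2451 rows with a mean log2CPM of 2 to 4, the median absolute log2FC was 0.30, the median standard error 0.19, and 112 rows rose and 81 fell at least 2-fold. Among the 656 rows above 8, the median absolute log2FC was 0.11, the median standard error 0.07, and 1 row rose and 2 fell at least 2-fold. The share of rows called differed less between the levels. It was 12.1% for rows that rose and 13.4% for rows that fell between 2 and 4, and 13.7% and 9.15% above 8.

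**Figure D1:**
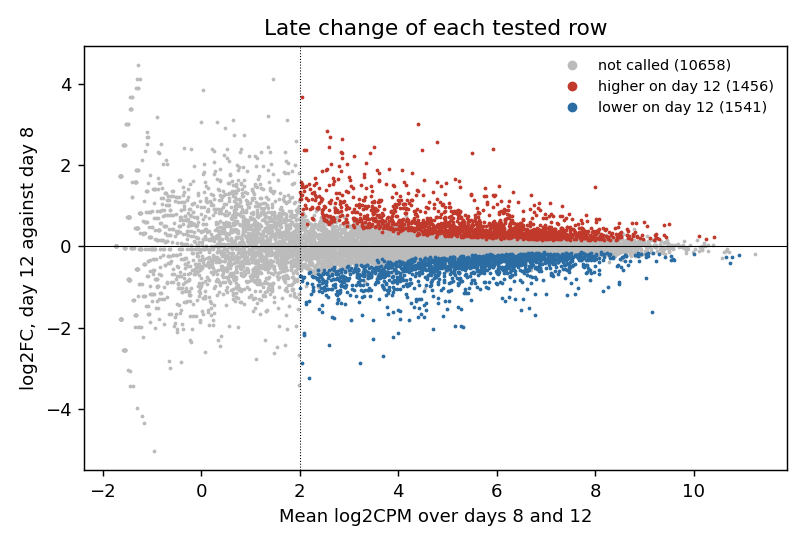
Each point is a row of the culture table, with its mean log2CPM over days 8 and 12 (horizontal axis) and its log2FC of day 12 against day 8 (vertical axis). The 1456 rows that rose are red, the 1541 that fell are blue and the other tested rows are grey, and the dotted line marks the expression threshold of 2; the points lie about evenly above and below 0 and spread less at high levels.

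The late step was the smallest of the culture course. From day 4 to day 8, also 4 days, 2009 rows rose (14.7% of those tested) and 1794 fell (13.1%), and 591 (4.33%) changed at least 2-fold, against 326 from day 8 to day 12. From day 1 to day 4, 3680 rows rose (26.9%) and 3859 fell (28.3%), together 55.2%. From day 0 to day 1, 4584 rose (33.6%) and 4329 fell (31.7%), together 65.3%. From day 4 to day 12, 44.4% of rows were called, 21.9% higher and 22.5% lower. The Euclidean distance between libraries over log2(CPM + 1) gave the same order. The 9 distances between day 8 and day 12 had a median of 48.0 (range 47.3 to 48.8), above the distances between libraries of the same day on days 8 (23.1 to 24.8) and 12 (23.7 to 25.1). The day 0 libraries differed more among themselves, by 44.8 to 66.0, so that their spread spanned the late step. The median distance was 61.9 (61.4 to 62.6) between day 4 and day 8 and 83.2 (82.2 to 83.4) between day 4 and day 12. The distance from day 0 was greater for day 12, with a median of 195 (194 to 197), than for day 8, with 186 (185 to 188). The libraries of day 12 thus lay farther from those of day 0 and from those of day 4 than the libraries of day 8 did.

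Among the called rows, row 19357 had the highest log2FC. It had 1.28, 0.582 and 1.14 CPM on day 8 and 12.4, 13.2 and 13.6 CPM on day 12, a log2FC of 3.67 ± 0.27 (SE; edgeR FDR 6.81e-07). All 3 libraries of day 12 were above all 3 of day 8, and the row was not seen on days 0 and 1. Row 19006 went from 9.42, 6.54 and 5.96 CPM to 59.8, 57.1 and 59.9 CPM (log2FC 3.02 ± 0.16, edgeR FDR 1.32e-09), from a mean of 0.32 CPM on day 4. Rows 22052, 22205, 4366 and 22835 had the same course, with a mean between 2.05 and 2.72 CPM on day 8 and between 13.3 and 17.03 CPM on day 12 and log2FC of 2.83, 2.69, 2.64 and 2.43. In these 6 rows the mean was below 1 CPM on each of days 0, 1 and 4. That days 8 and 12 did not overlap was a condition for choosing the highest, lowest and sorted rows named here and below.

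The other 2 of the 8 highest rows had another course. Row 20752 had 47.6, 43.0 and 42.0 CPM on day 0, a mean of 2.06 CPM on day 1 and of 5.68 CPM on day 4. It then had 12.6, 9.45 and 11.5 CPM on day 8 and 71.2, 61.7 and 65.5 CPM on day 12 (log2FC 2.56 ± 0.12, edgeR FDR 5.88e-10). Its day 12 values were thus above those of the uncultured control, after 3 sampling days below them. Row 14065 had a mean of 35.3 CPM on day 0, between 1.28 and 2.70 CPM on days 1 and 4, 4.42, 4.65 and 4.95 CPM on day 8 and 27.8, 22.7 and 26.6 CPM on day 12 (log2FC 2.45 ± 0.16). Here day 12 was close to but below day 0, where the 3 values were between 31.3 and 38.8 CPM.

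Among the called rows, row 14628 had the lowest log2FC. It was not seen on days 0 and 1, had 2.21, 1.67 and 2.39 CPM on day 4, 12.6, 13.4 and 12.1 CPM on day 8 and 1.07, 1.10 and 1.76 CPM on day 12 (log2FC -3.24 ± 0.23, edgeR FDR 6.64e-07). It was therefore high on day 8 only. Row 17397 had 24.8, 23.0 and 25.5 CPM on day 8 and 2.27, 4.13 and 3.64 CPM on day 12 (log2FC -2.86 ± 0.25), and its mean on day 0 was 54.1 CPM. Row 23818, with means of 1.56 CPM on day 0 and 3.52 CPM on day 1, had 42.6 CPM on day 4, 32.3, 32.6 and 33.5 CPM on day 8 and 7.49, 7.43 and 7.29 CPM on day 12 (log2FC -2.14 ± 0.11). Row 11449 had a like course, from a mean of 43.6 CPM on day 4 to 23.9 CPM on day 8 and 4.96 CPM on day 12. Rows 14628, 23818 and 11449, which were low or absent on day 0, thus had their highest mean on day 4 or day 8.

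The other 4 of the 8 lowest rows, 10527, 10753, 12368 and 6434, were like row 17397 highest on day 0. Row 10527 went from a mean of 1351 CPM on day 0 to 47.3 CPM on day 1 and 127 CPM on day 4, and then had 32.0, 31.0 and 32.7 CPM on day 8 and 4.15, 6.05 and 4.65 CPM on day 12 (log2FC -2.69 ± 0.18, edgeR FDR 1.54e-08). Row 12368 had a lower mean at each sampled day, from 453 CPM on day 0 through 126, 65.3 and 31.8 CPM to 6.74 CPM on day 12 (late log2FC -2.23 ± 0.14). In all 4 rows the values of day 12 lay below those of every other day.

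The 5 rows with the most counts each had a lower mean on day 12, but 3 of them passed the test. Row 4227 had 1974, 2062 and 1931 CPM on day 8 and 1497, 1539 and 1456 CPM on day 12 (log2FC -0.41 ± 0.09, edgeR FDR 0.00446). Rows 3948 (log2FC -0.22, FDR 0.0181) and 10949 (log2FC -0.27, FDR 0.0411) passed as well, while rows 7597 (log2FC -0.18, FDR 0.0627) and 6798 (log2FC -0.14, FDR 0.0748) did not. Row 10949 lost its call without any one of the 6 libraries and row 3948 without library A or B of day 8 or C of day 12. The 10 highest rows of a library together held 1.96%, 2.00% and 1.90% of its counts on day 8 and 1.74%, 1.72% and 1.65% on day 12, and the days did not overlap (exact permutation test, two-sided p = 0.1, the smallest that 3 against 3 libraries allow). For the 100 highest rows, the means were 9.54% and 9.27%, with overlapping libraries (exact p = 0.2). At most 3 reads were counted per position, which lowers the counts of the highest rows.

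**Figure D2:**
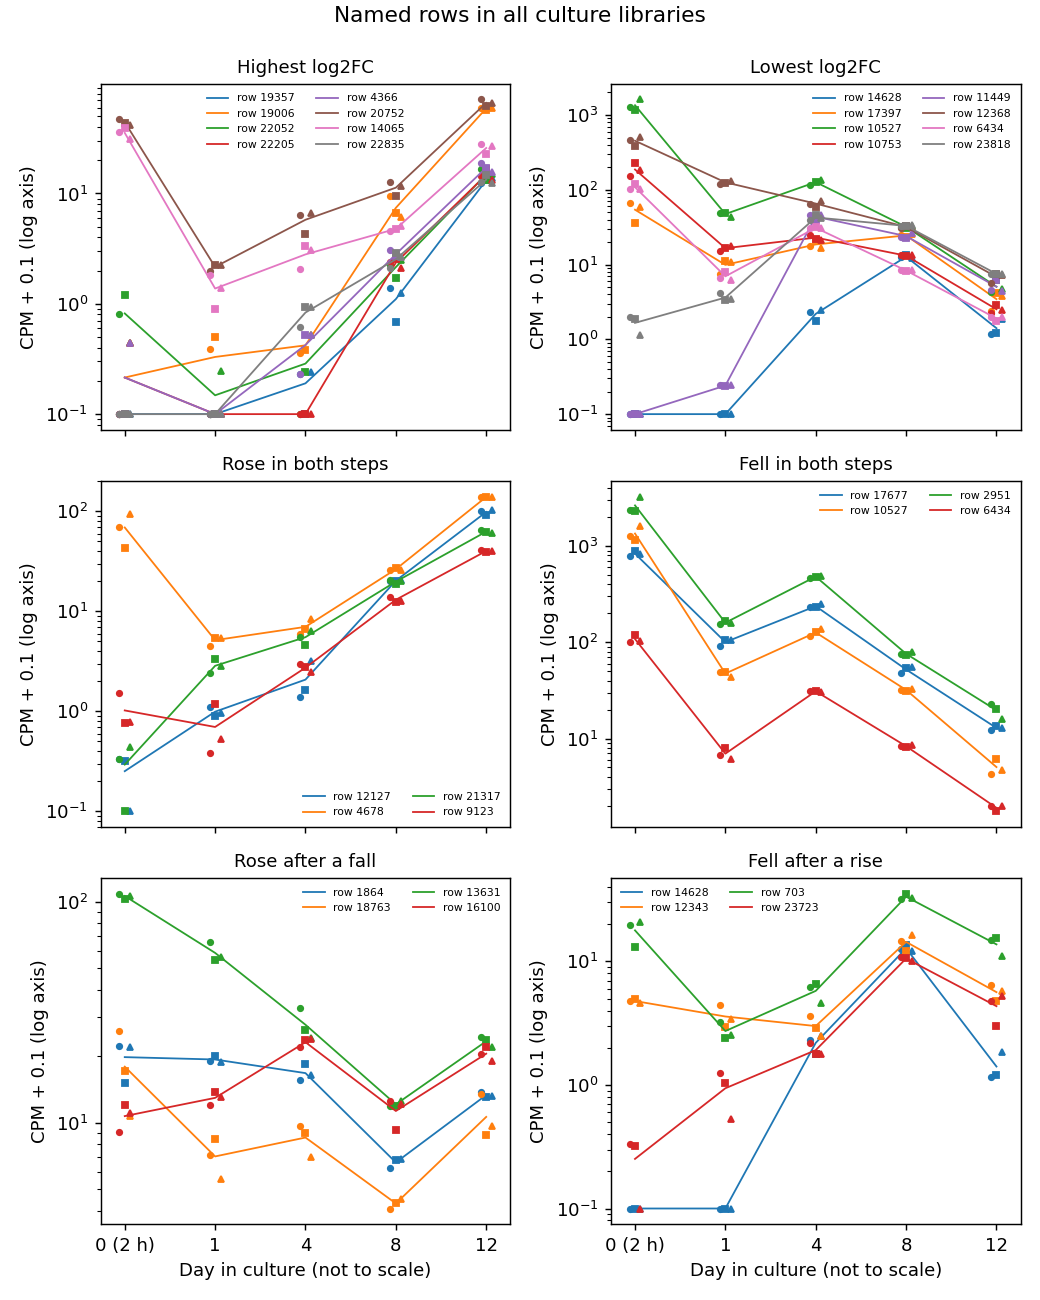
CPM plus 0.1 of named rows (log axis) in the 15 culture libraries by day, with a marker per library (circle A, square B, triangle C) and a line through the day means; the panels hold the 8 rows with the highest and the 8 with the lowest log2FC of day 12 against day 8, and 4 rows of each combination of the last 2 steps. Rows 20752, 14065 and 4678 trace a U shape from day 0 to day 12, and rows 14628, 12343, 703 and 23723 have their highest culture level on day 8.

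The late changes were then sorted by the change of the same row from day 4 to day 8. Both steps use the day 8 libraries, so an error in these libraries enters the steps with opposite signs, and the counts are given as a description. Of the 2997 late calls, 941 (31.4%) extended the earlier step, 451 (15%) opposed it and 1605 (53.6%) were of rows not called before. Over all rows tested, 14.7% rose and 13.1% fell from day 4 to day 8. Among the rows that rose late, 504 (34.6%) had risen and 135 (9.27%) had fallen. Among the rows that fell late, 437 (28.4%) had fallen and 316 (20.5%) had risen. The late rows all lie above the expression threshold, which the rows tested do not. Of changes that were at least 2-fold in both steps, 66 extended and 28 opposed. Without one of the day 8 libraries, the extending rows numbered between 591 and 595 and the opposing rows between 269 and 287. Without day 0 in the fit they numbered 2229 and 1207.

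The 504 rows that rose in both steps had a median log2FC of 0.56 from day 4 to day 8. From day 8 to day 12 it was 0.46. All 504 were called higher on day 12 than on day 4. That change is the sum of both steps, so the choice of rows all but fixes this. The median over all rows tested was within 0.01 of 0 in both steps. Row 12127 had 1.30, 1.53 and 3.10 CPM on day 4, 19.98, 19.9 and 20.6 CPM on day 8 and 101, 91.5 and 103 CPM on day 12. Its log2FC was 3.35 in the first of these steps and 2.29 ± 0.11 in the second, and the values of the 3 days did not overlap. Row 4678 had means of 68.9 CPM on day 0, 5.05 CPM on day 1 and 6.90 CPM on day 4, and then 26.0, 27.3 and 25.6 CPM on day 8 and 139, 141 and 139 CPM on day 12 (log2FC 2.41 ± 0.17). It was far lower on day 1 than on day 0 and by day 12 stood above all libraries of day 0. Rows 21317 and 9123 rose steadily from means of 5.42 and 2.63 CPM on day 4 to 62.7 and 40.1 CPM on day 12.

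The 437 rows that fell in both steps had a median log2FC of -0.41 and then -0.46. All were called lower on day 12 than on day 4, which the choice of rows likewise all but fixes. From day 1 to day 4, however, their median log2FC was 0.02. The rows with the largest falls in both steps had a higher mean on day 4 than on day 1. Row 17677 had a mean of 835 CPM on day 0 and 100 CPM on day 1, 231, 231 and 250 CPM on day 4, 48.0, 53.4 and 54.9 CPM on day 8 and 12.0, 13.5 and 12.8 CPM on day 12 (late log2FC -2.03 ± 0.10, edgeR FDR 5.88e-10). Row 2951 went from a mean of 2650 CPM on day 0 to 160 CPM on day 1, back to 482 CPM on day 4, and then to 75.9 and 19.6 CPM on days 8 and 12 (late log2FC -1.96 ± 0.14). Rows 10527 and 6434 had the same course, a sharp loss by day 1, a higher level on day 4 and a loss at each later step.

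Of the 451 rows that moved in opposite directions in these steps, more were not called between day 4 and day 12 than were called. The 135 rows that rose after a fall had median log2FC of -0.42 and 0.40, and between day 4 and day 12 their median was 0.00, with 95 not called, 16 higher and 24 lower. Row 1864 had 15.5, 18.3 and 16.3 CPM on day 4, 6.14, 6.69 and 6.72 CPM on day 8 and 13.6, 12.9 and 13.2 CPM on day 12 (late log2FC 1.02 ± 0.15, edgeR FDR 8.1e-05). Day 8 was its lowest day, and day 12 was still below all 3 libraries of day 4. Row 16100 had a mean of 23.1 CPM on day 4, 11.2 CPM on day 8 and 20.4 CPM on day 12, and row 13631 means of 27.7, 12.0 and 23.3 CPM. Row 18763 (late log2FC 1.31 ± 0.28) no longer passed the test when all libraries were thinned to the smallest total, where its log2FC was 0.99.

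The 316 rows that fell after a rise had median log2FC of 0.73 and -0.57. Their median between day 4 and day 12 was 0.13, and 168 were not called in that comparison, while 117 were still higher and 31 were lower. Row 703 had 6.11, 6.41 and 4.50 CPM on day 4, 32.1, 35.2 and 32.6 CPM on day 8 and 14.7, 15.3 and 10.9 CPM on day 12 (late log2FC -1.29 ± 0.15, edgeR FDR 8.22e-06). Each day was separate from the others, with day 12 between days 4 and 8. Row 12343 went from a mean of 2.90 CPM through 14.3 to 5.54 CPM and row 23723 from 1.81 through 10.5 to 4.24 CPM. Of these 4 leading rows, only row 14628 had a lower mean on day 12 than on day 4.

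**Figure D3:**
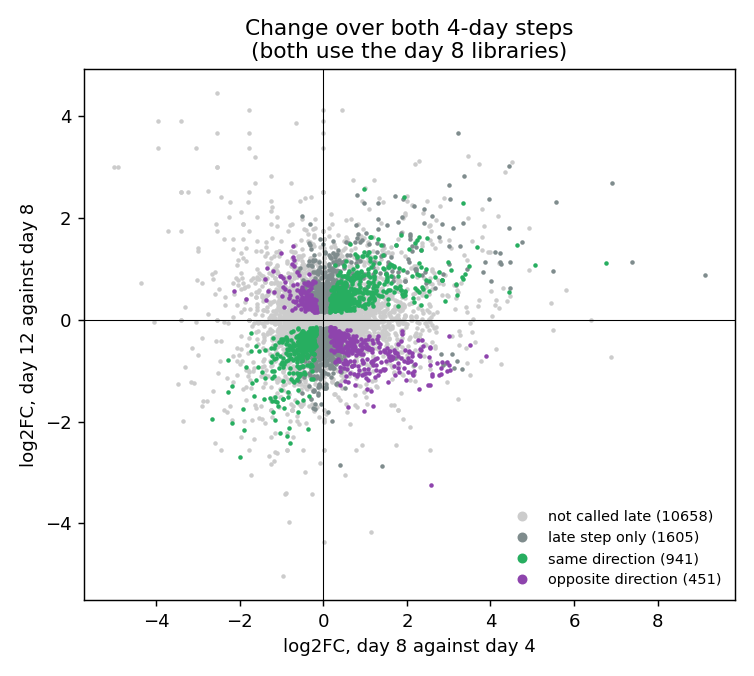
Each point is a tested row, with its log2FC of day 8 against day 4 (horizontal axis) and of day 12 against day 8 (vertical axis). Green points are the 941 rows called in both steps in the same direction, purple points the 451 called in opposite directions, dark grey points the 1605 called in the late step only and light grey points the rest; the day 8 libraries enter both axes with opposite signs.

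Steps that share no library with days 8 and 12 gave a different split. Against the step from day 1 to day 4, in which 26.9% of all rows tested rose and 28.3% fell, 570 (39.1%) of the rows that rose late had risen and 324 (22.3%) had fallen. Of the rows that fell late, about as many had risen (530, 34.4%) as had fallen (537, 34.8%). The late rows all lay above the expression threshold, so rows above it are the nearer reference. Of the 11053 such rows in that step, 3680 rose and 3859 fell, together 68.2%. The late falls were near this reference in both directions. In the step from day 0 to day 1, which also shares no library with the late comparison, 33.6% of all rows tested rose and 31.7% fell. Of the rows that rose late, 402 (27.6%) had risen and 562 (38.6%) had fallen in that first step, and of those that fell late, 583 (37.8%) had fallen and 627 (40.7%) had risen. Of the late rows in all, 985 (32.9%) moved in the direction of the first step and 1189 (39.7%) against it. Of the 11100 rows above the threshold in that first step, 4584 rose and 4329 fell, together 80.3%. The late falls were again near this reference in both directions. The late rises were near it for rows that had fallen (38.6%) and below it for rows that had risen (27.6%). The 39.7% that moved against the first step was thus near the reference as well.

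Over the 5 sampled days, 985 (67.7%) of the rows that rose late had their highest mean on day 12, against 22.1% of all rows above the threshold. In a further 342 (23.5%) the highest mean was on day 0, so that day 12 was below the starting level. Here the share of all rows was higher, at 30.7%. Of the rows that fell late, 673 (43.7%) had their lowest mean on day 12, against 17.8% of all rows, and 569 (36.9%) on day 0, against 41.1%. Their highest mean was on day 8 in 360 (23.4%, against 10.8% of all rows). It was on day 0 in 542 (35.2%), on day 1 in 417 (27.1%) and on day 4 in 222 (14.4%), where all rows had 30.7%, 24.7% and 11.7%. The choice of rows by the late step bars day 8 as the peak of a row that rose and day 12 as the peak of a row that fell.

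More rows were detected on day 12 than on day 8 at equal depth. Each library was brought to the smallest total of the 15, 3556607 counts, by the expected number of rows left with at least 1 count. This gave 15189, 15197 and 15198 rows on day 8 (mean 15195 ± 4.93, SD, n = 3) and 15631, 15658 and 15599.6 rows on day 12 (mean 15629.6 ± 29.3, SD, n = 3). The difference was 435 rows, all 3 libraries of day 12 were above all 3 of day 8, and the exact permutation test gave a two-sided p of 0.1, the smallest that this design allows. The difference was smaller for rows with more counts. It was 210 rows for rows with at least 3 counts and 69.9 for rows with at least 10, again with no overlap between the days (exact p = 0.1 for each). As deposited, without equal depth, the difference was 599 rows. Over the course, the mean number at equal depth was 15621 ± 273 (SD) on day 0, 14895 ± 87.5 on day 1, 14965 ± 12.9 on day 4 and then the values given for days 8 and 12. The libraries of day 12 were thus within the range of day 0, which ran from 15307 to 15803, and above those of days 1, 4 and 8.

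**Figure D4:**
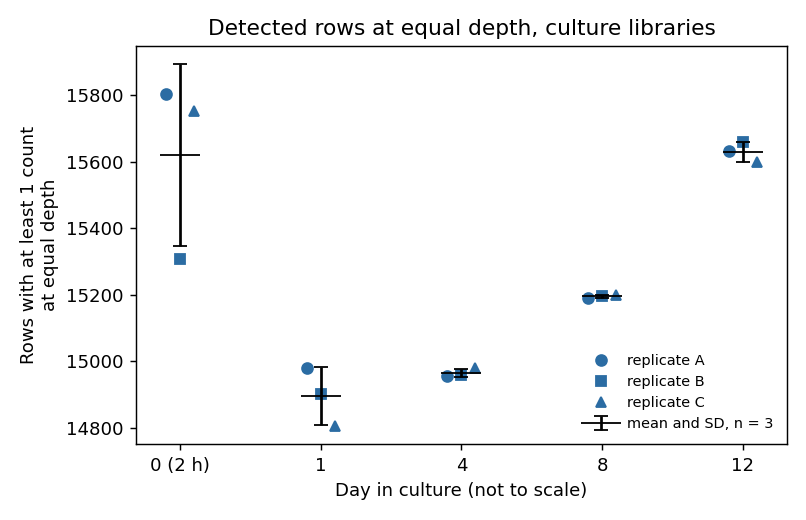
Number of rows with at least 1 count in each culture library when brought to 3556607 counts (vertical axis, which does not start at 0), by day in culture, with the mean and SD of the 3 libraries. The libraries of day 8 lie between 15189 and 15198 and those of day 12 between 15599.6 and 15658, above every library of days 1, 4 and 8.

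The gain lay in rows at or near 0 in the earlier culture. Rows were grouped by their mean CPM over the libraries of days 0, 1 and 4, which the late comparison does not use. The 4747 rows with no count in those libraries had a mean of 107 detected rows on day 8 and 232 on day 12, and their share of all counts went from 0.00501% to 0.0120%, a ratio of 2.39. The 5095 rows above 0 and up to 0.5 CPM had 1454 and 1745 detected rows and a ratio of shares of 1.65. Together these rows made up 416 of the difference of 435 (95.8%). Rows with higher earlier levels added less. At 0.5 to 1 CPM a mean of 692 of 963 rows was detected on day 8 and 712 on day 12. At 1 to 4 CPM the means were 1617 and 1619 of 1822 rows. Above 4 CPM nearly all rows were already detected on day 8. At 4 to 16 CPM a mean of 2355 of 2391 rows was detected on that day, and at 16 to 64 CPM 4259 of 4268. The ratio of shares went down with the earlier level, from 1.42 at 0.5 to 1 CPM and 1.24 at 1 to 4 CPM to 1.07 at 4 to 16 CPM and 1.00 at 64 to 256 CPM. The 731 rows above 256 CPM held 28.9% of the counts on day 8 and 27.9% on day 12, a ratio of 0.966. The libraries of day 8 lay nearer than those of day 12 to the days used for grouping. Grouping by earlier level can by itself give such a gradient, which was not tested. In each of the lowest 3 groups the detected rows of the days did not overlap (exact p = 0.1). At 16 to 64 CPM and above 256 CPM they did not overlap either, with slightly fewer rows on day 12 (exact p = 0.1 for each).

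The rows too low to be tested moved the same way as a group. A total of 6609 rows had counts but did not pass the filter, and their summed level was 941, 960 and 942 CPM on day 8 and 1263, 1309 and 1291 CPM on day 12, a ratio of 1.36 (exact p = 0.1). Of these, 3363 had a higher mean on day 12, 1953 a lower mean and 1293 no count on either day. In the 6 libraries, 1508 rows had no count on day 8 and at least 1 on day 12, and 660 had the reverse. Most rested on very few counts, as 867 of the 1508 and 476 of the 660 had a single count, and intervals at this level cover counting error only. Of the 1508 rows, 926 had been seen on day 0, 1 or 4, 1177 in the diet experiment and 1127 in the CCl4 experiment. For all 3 libraries of day 12 to hold the row with none on day 8 was found in 126 rows, and the reverse in 30.

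The highest of these 126 was row 8641, with 0 counts in the 3 libraries of day 8 and 4, 5 and 7 counts on day 12. Taking 3 counts over the 3 libraries of day 8 as the limit that a count of 0 allows, it was at least 5.13-fold higher on day 12. Row 7129 had 4, 4 and 5 counts on day 12 (at least 4.17-fold higher), and rows 20873 and 21061 at least 3.85-fold higher values. Neither of the first pair was absent earlier, since row 8641 had 2 and 1 counts in libraries A and B of day 1 and row 7129 had 2 and 1 in B and C of day 4. In the reverse direction, row 19101 had 3, 7 and 3 counts on day 8 and 0 in the 3 libraries of day 12, at least 4.51-fold lower. It had between 6 and 18 counts in the libraries of day 0 and between 6 and 12 in those of day 4. Rows 19653, 12969 and 23914, with 8, 8 and 7 counts in all on day 8, were by the same limit 2.77-fold, 2.77-fold and 2.43-fold lower. All these limits take the counts of the other day as exact, in rows picked as the highest of their kind. Rows 19101 and 19653 had an edgeR FDR of 0.0107 and 0.0063 but lay under the expression threshold, so neither was called. Row 23914 did not pass the test (edgeR FDR 0.0536). Row 12969 was too low to be tested, as were rows 8641, 7129, 20873 and 21061.

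The late rows were last looked up in the mouse experiments, whose libraries take no part in the culture comparison. Of the rows of the culture fit, 12377 were also tested in the diet table and 12608 in the CCl4 table. In the whole tables, 21.3% of rows were higher and 16.4% lower after 24 weeks of WD, and 18.9% were higher and 23.6% lower after 8 weeks of CCl4. Among rows tested in both tables, the shares were 19.5% and 17.8% in WD and 18.8% and 25.3% in CCl4. All rows that rose late were near these values, with 20.1% higher and 21.2% lower in WD and 20.1% and 28.8% in CCl4. All rows that fell late had 18.4% higher and 19.8% lower in WD and 23.9% and 28.9% in CCl4.

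Some of the sorted rows differed more from these shares. Of the late rises of at least 2-fold, 36 of the 114 tested (31.6%) were higher and 9 (7.89%) lower in WD, with a median log2FC of 1.81, and 38 of 117 (32.5%) were higher and 10 (8.55%) lower in CCl4, with a median of 2.00. The other 64 and 61 of the 178 rows were under the filter of the mouse tables. A row hardly seen in control mice passed that filter only where another group was higher, which can raise these medians. The late falls of at least 2-fold had 14.5% higher and 24.4% lower in WD, and both directions were above all rows in CCl4, with 31.9% higher and 39.1% lower. Of the rows that rose in both steps, 26.1% were higher and 17.3% lower in WD and 27.4% higher and 22.5% lower in CCl4. Of the rows that fell in both steps, 29.9% were lower and 13.4% higher in WD and 48.3% were lower and 12.5% higher in CCl4 (median log2FC -0.38 and -0.41). The rows that rose after a fall had like shares, with 33.1% lower in WD and 47% lower in CCl4. The rows that fell after a rise went the other way in CCl4. Of 297 tested, 152 (51.2%) were higher and 36 (12.1%) lower in CCl4, with a median log2FC of 1.24 against -0.05 over all rows, and in WD 22.1% were higher and 8.9% lower. In CCl4 this was found at each level of the culture libraries, with 61% higher at a mean log2CPM of 2 to 4, 52.6% at 4 to 6 and 42.3% above 6, where all rows had 20.2%, 20.5% and 17.4%. In WD the shares higher at these levels were 16.9%, 22% and 25.7%, where all rows had 18%, 21.5% and 16.6%. The shares lower in WD were 4.23%, 7.34% and 13.9%, where all rows had 14%, 17.3% and 21.8%. These shares are descriptions and carry no test of the list against other rows.

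Single rows showed both patterns. Row 12127, which rose in both late steps, had between 1.46 and 2.59 CPM in chow-fed mice and between 69.6 and 199 CPM after 24 weeks of WD (log2FC 5.98, edgeR FDR 5.11e-07). In the CCl4 experiment it had between 0 and 3.27 CPM in vehicle-treated mice and between 81.1 and 132 CPM after 8 weeks (log2FC 6.13, edgeR FDR 8.01e-08). Row 9123 was likewise higher in both (log2FC 5.73 and 4.78), and in neither row did the groups overlap. Row 10753, which fell late, had 488 to 616 CPM in chow-fed and 115 to 346 CPM in WD-fed mice (log2FC -1.21, edgeR FDR 0.0428), and 528 to 727 against 80.7 to 162 CPM in CCl4 (log2FC -2.35, edgeR FDR 6.71e-06).

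Rows 23818 and 17677 fell late in culture and were higher in CCl4, whereas row 20752 rose late and was higher in CCl4 only. Row 23818, which fell late in culture, had between 0.211 and 0.477 CPM in vehicle-treated mice and between 53.5 and 227 CPM after 8 weeks of CCl4 (log2FC 8.20, edgeR FDR 3.18e-08). It was also higher in WD (log2FC 2.03, edgeR FDR 0.0294), with 0.911 to 4.81 CPM in chow-fed and 5.47 to 24.5 CPM in WD-fed mice. Row 17677, which fell in both late steps, had 410 to 757 CPM in vehicle-treated and 1260 to 2030 CPM in CCl4-treated mice (log2FC 1.36, edgeR FDR 0.000284), while in WD it did not pass the test (log2FC -1.09, edgeR FDR 0.0997). Row 20752, high on days 0 and 12 of culture, had 96.4 to 133 CPM in chow-fed and 75.2 to 165 CPM in WD-fed mice, which overlapped, and 51.5 to 96.6 against 224 to 315 CPM in CCl4, which did not (log2FC 1.82, edgeR FDR 1.24e-06).

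**Figure D5:**
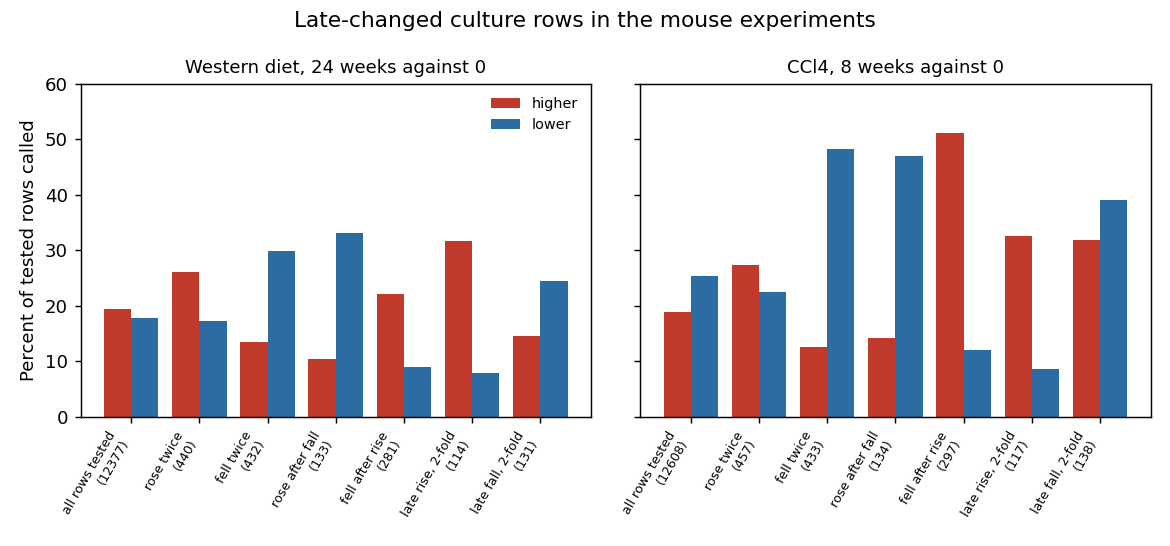
Percent of tested rows called higher (red) and lower (blue) in HSCs of mice after 24 weeks of WD against chow (left) and 8 weeks of CCl4 against vehicle (right), for all rows tested in both tables and for sets of rows sorted by their late change in culture, with the number tested in brackets. In CCl4, rows that fell after a rise have 51.2% higher and 12.1% lower, whereas rows that fell in both steps have 12.5% higher and 48.3% lower.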

How the data were processed

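The authors aligned the reads of each library with STAR to mm10, counted reads on exons with HOMER (both strands, at most 3 reads per position, 1 transcript per gene) and deposited raw counts per gene without normalization, per the file headers and the submitters' processing notes. Versions are not given in the sources used here. The cap flattens the highest counts, and reads are not independent molecules, so the limit that a count of 0 allows (3 counts) covers counting error only. Columns were assigned by the titles in the second header line. The command in the header of the 3 tables names the same source libraries, and 0 value columns were left unused. All 23999 rows are listed in the same order in each table.

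Counts were tested with edgeR 4.0.16 in R 4.3.3 (filterByExpr, TMM, glmQLFit and glmQLFTest) over all 15 culture libraries, and each mouse table was fitted on its own (16 and 14 libraries). p-values were adjusted by Benjamini-Hochberg over all 13655 rows tested, and the common biological coefficient of variation was 0.0766. Day means are means over 3 libraries. Where 1 compared group of mice had no counts, its row was also set to the bound of 3 counts, which left every median given unchanged. The code was tested on simulated counts with seed 1, and figures were drawn with Python 3.11.15.

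Named rows were, among rows called and with days that did not overlap, the 8 highest and 8 lowest by log2FC and the 4 of each combination of the last 2 steps with the largest smaller absolute log2FC. Whether called or not, the 4 highest rows with counts in all libraries of one day and none of the other, each way, and the 5 rows with the most counts were also named. Rows of the mouse comparisons named singly are from these. The row groups, tests and lists were chosen with earlier results of these data known.

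The letters A to C are shared between days. The correlation of deviations from the day means between same-letter libraries of days 8 and 12 was between -0.02 and 0.04, so the letters were not taken as pairs. The difference between any 2 libraries of a day exceeded sampling noise in a chi-square test over rows, but on day 8 only slightly. Chi-square per row was 1.08 to 1.18 on day 8, 1.3 to 1.67 on day 12 and 4.52 to 15.4 on day 0. Alternatives were other scalings, tests, filters, thresholds, depths and sets of libraries, DESeq2 1.42.0 and a replicate block. Leaving out day 0 was added after seeing the data. Comparisons by the authors were not used, and gene names, sequences and gene lists were not analysed here.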

Additional observations from a re-analysis of the deposited data

How the results depend on the processing

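The 34 named rows other than those at 0 on one day kept their direction in all 476 recalculations, of which 13 lost and 7 gained the call (rows 10949, 3948 and 18763, and rows 7597 and 6798). The numbers of calls moved more. With only the compared days in the fit, 2944 rows rose, 2914 fell, 2417 extended and 1333 opposed. With edgeR's exact test on those days the numbers were 2940, 2913, 2401 and 1330. Without day 0 in the fit they were 2803, 2913, 2229 and 1207, an alternative added after seeing the data, and these 3 settings kept all 2997 calls. At a minimum of 2-fold they were 178, 148, 66 and 28. Thinned to the smallest total, 613 extended and 293 opposed, and 69.1% of the calls were kept. Leaving out 1 library of day 8 or 12 gave 986 to 1053 rows that rose and 1025 to 1136 that fell. Leaving out 1 library of day 4, 8 or 12 gave 591 to 749 that extended and 269 to 357 that opposed. With the letter as a replicate block, which has no basis as a pairing, 1385 rose, 1454 fell, 874 extended and 422 opposed, and 8 of 15 libraries correlated best with one of their own letter. Other scalings, DESeq2's test, no filter and no expression threshold stayed within 1.5 times of all 4 counts. No fit turned the direction of a call. The difference in detected rows kept its direction in each version: 209.8 for at least 3 counts, 69.95 for at least 10, 330.9 at 0.5 of the depth, 537.5 at the smallest total of days 8 and 12 and 598.7 as deposited. With 3 libraries a day, no permutation test could fall below 0.1.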
